A study of Arabidopsis thaliana with 24 samples.

Results

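Roots of the Arabidopsis thaliana line PPL were compared with roots of pye-1, a mutant of POPEYE (PYE), both without iron. Genes were compared where the deposited table gave at least 1 RPKM (reads scaled by gene length and by library size) in either column, which held for 18992 of 33602 genes. Each column stood for 3 libraries, so 6 of the 24 samples of the series lay behind the comparison. Seedlings were 7 days old at harvest, after 4 days with iron and 3 days on medium that lacked FeEDTA and held 300 µM ferrozine, a chelator of ferrous iron. The 6 other groups, used here for their levels, were wild type with 0.1 mM FeEDTA throughout, wild type without iron, and the iron-deficient lines SHR23, PEP45, WER13 and WER65, each with 3 libraries.

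The labels give PPL the GFP localization code V-EN-C-EP, SHR23 the code V-EN, PEP45 C-EN-V, WER13 EP-C and WER65 EP, with no GFP code for pye-1 or wild type, and they do not spell the codes out. The sample records write PYE for the group that the series design lists as pye-1, and the name pye-1 is used below. Neither the promoter that drives a construct in PPL, nor the number of independent transformants, nor whether the line carries the pye-1 allele is stated in the labels. Each group has 1 deposited value per gene, so no spread between libraries, no standard deviation and no test of PPL against pye-1 can be given, and every RPKM below is the authors' group value. The words higher and lower below describe such values. A rise or a fall is named only where the authors' own test against iron-deficient wild type lists the gene.

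POPEYE is a basic helix-loop-helix (bHLH) transcription factor that is induced in roots short of iron and is known as a repressor of genes for iron storage and for iron movement inside the plant. Arabidopsis roots take iron up by acidifying the soil, secreting coumarins, reducing ferric iron at the surface and importing the ferrous ion, a programme driven by the bHLH factor FIT with its partners of subgroup Ib. Iron that is not used is kept in plastid ferritins and in vacuoles, and storage genes are normally kept low when iron is scarce.

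PPL had lower transcript levels of iron storage genes than pye-1 and higher levels of iron uptake, root hair and methionine-derived glucosinolate genes, while most of the transcriptome lay close. At 2-fold or more on the log2(RPKM + 0.5) scale, 715 genes were higher in PPL (3.76% of those compared), 567 were lower (2.99%), and 6.75% differed in either direction. The median difference was -0.0042 on the log2 scale, its median size was 0.23, and 15680 genes (82.6%) lay within 1.5-fold. The lower side held the largest differences, since 8-fold was passed by 23 lower and 8 higher genes and 16-fold by 9 lower genes and 1 higher gene.

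**Figure D1:**
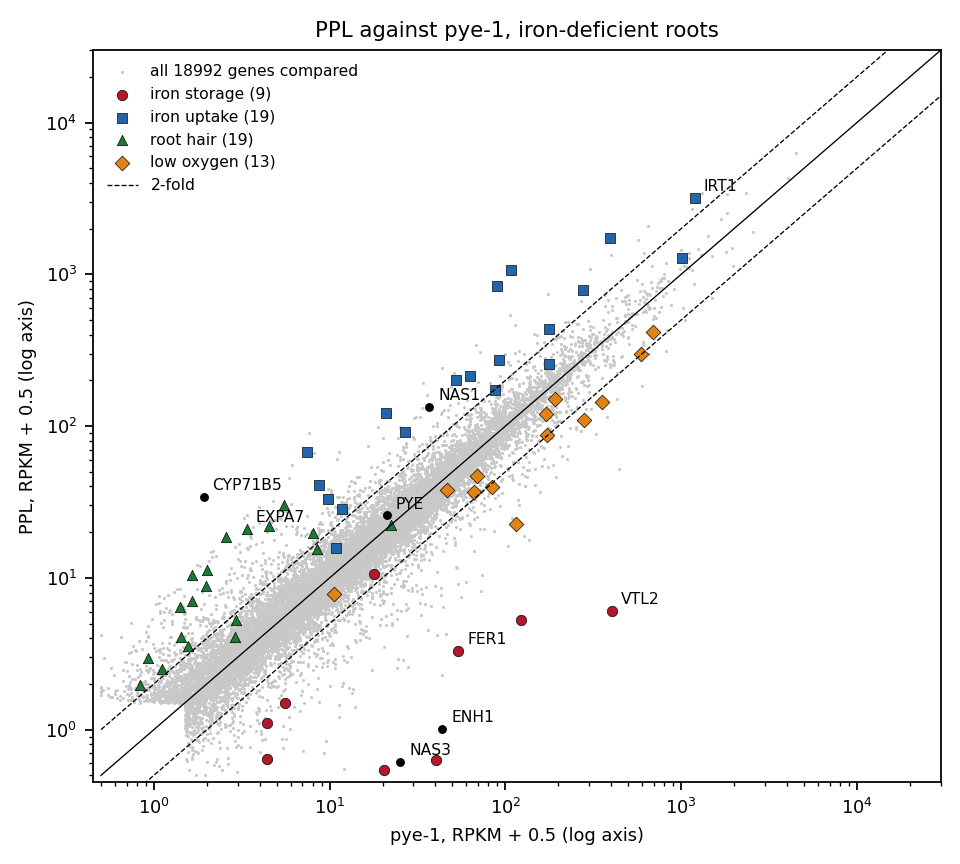
Level of each of the 18992 genes in pye-1 (horizontal) and PPL (vertical) as RPKM + 0.5 on log axes, with the dashed lines at 2-fold and with storage, uptake, root hair and low-oxygen genes coloured. The 9 storage genes lie below the diagonal and the 19 uptake genes above it, with VTL2 at 404 RPKM in pye-1 and 5.58 in PPL.

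Transcript of PYE itself (AT3G47640, at chromosome 3, 17567126 to 17569394 of TAIR10.1) did not set PPL apart from pye-1. It stood at 11 RPKM in wild type on iron, 45.1 in wild type without iron, 20.6 in pye-1 and 25.3 in PPL, and at 45.8 in SHR23, 28.9 in PEP45, 30.3 in WER13 and 27.5 in WER65. PPL was therefore 1.23-fold above pye-1, and both lay under iron-deficient wild type. The authors' deposited table lists PYE as falling in pye-1 (q = 0.0001), and the deposited table headed PYE, taken here for PPL, lists it as falling as well (q = 0.0178). The heading of that table gives neither the name PPL nor its code. It was assigned by elimination, since pye-1 and the 4 other lines each have a table under their own name or code, and by the values of its 3 genes, chiefly MRD1, which is low in the PPL column and not in that of pye-1. CNGC12 and MRD1 stood at like levels in PEP45, WER13 and WER65, so the values alone do not single out PPL, and its statements are tied to this assignment. Transcript from the locus was counted in the mutant, the counts do not separate an introduced copy from the native gene, and the level is thus no check of which group is the mutant.

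The genes on either side of PYE gave a mixed picture. AT3G47630, annotated as a translocator assembly and maintenance protein and lying just upstream on the opposite strand (chromosome 3, 17562941 to 17565685), stood at 9.35 RPKM in iron-deficient wild type and 10.5 in PPL. It stood at 40.1 in pye-1 and 39.7 to 48.9 in the other 4 lines, and the authors' deposited table lists it as rising in pye-1 (q = 8.33e-07). At this gene PPL lay with wild type and apart from all 5 other iron-deficient groups. AT3G47650, a DnaJ cysteine-rich domain gene that begins just downstream (chromosome 3, 17569424 to 17570607), stood at 4.6 RPKM in iron-deficient wild type, 1.18 in pye-1 and 1.29 in PPL. There PPL lay with pye-1, and the authors' deposited table lists the gene as falling in pye-1 (q = 0.00317).

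Iron storage genes were the group with the lowest levels in PPL relative to pye-1. Of 9 storage genes with at least 1 RPKM in either column, 8 were at least 2-fold lower in PPL and none was higher, against 2.99% of all genes compared that were lower, and their median log2 difference was -4.04. VTL1, NEET, AT3G43660, FER4 and FER2 lay under 1 RPKM in PPL and were kept through their pye-1 level alone. Their lower value thus follows from the filter, and its effect on the count was not tested. VTL2 (AT1G76800), a member of the vacuolar iron transporter family, showed the largest difference of all genes on the log2 scale. It stood at 2.44 RPKM in iron-sufficient wild type, 5.96 in iron-deficient wild type, 404 in pye-1, 5.58 in PPL, 511 in SHR23, 519 in PEP45, 486 in WER13 and 460.4 in WER65. PPL and the wild-type groups thus reached at most 5.96 RPKM and the 5 other groups held at least 404, and pye-1 exceeded PPL 72.5-fold. The gene lies on chromosome 1, 28829243 to 28830278, plus strand.

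The related genes VTL1 (AT1G21140) and VTL5 (AT3G25190) followed. VTL1 stood at 39.6 RPKM in pye-1 and 0.131 in PPL, against 0.18 in iron-deficient wild type and 6.43 with iron. VTL5 stood at 121 RPKM in pye-1 and 4.81 in PPL, against 8.67 in wild type without iron and 96.4 on iron, and SHR23 at 14.7 was the line nearest to PPL. A further member of the family, AT3G43660, stood at 3.92 RPKM in pye-1 and 0.143 in PPL, and the last, AT3G43630, was under 1 RPKM in both and was not compared. The list of 9 also counts NEET (AT5G51720), which encodes a protein that binds a 2Fe-2S cluster and is neither a ferritin nor a vacuolar transporter. NEET stood at 20 RPKM in pye-1 and 0.0428 in PPL.

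The ferritins, the plastid proteins that hold iron in a mineral core, differed by unequal amounts. FER1 (AT5G01600) stood at 36.2 RPKM in wild type on iron, 3.34 in wild type without iron, 53.5 in pye-1 and 2.79 in PPL, with 41.3 to 59.9 in the other 4 lines. FER4 (AT2G40300) stood at 5.07 RPKM in pye-1 and 0.994 in PPL, and FER2 (AT3G11050), the seed ferritin, at 3.9 RPKM in pye-1 and 0.603 in PPL. FER3 (AT3G56090) was the storage gene that missed 2-fold, at 17.5 RPKM in pye-1 and 10.1 in PPL. The authors' deposited table lists all 9 as rising in pye-1 against wild type, with q = 5.89e-08 for VTL2, 1.3e-07 for VTL1, 2.02e-06 for FER1 and 0.00018 for FER4. At 1 RPKM about 50.8 reads per kilobase lay behind a value over the 3 PPL libraries and 66.5 over those of pye-1. Values far under 1 RPKM thus rest on few reads, and no ratio is printed for values under 1 RPKM. The 2-fold calls still count such genes.

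The 250 bases upstream of the annotated start are shown for VTL2 and FER1, which were lower in PPL, and for BHLH38, an iron-response gene that did not differ 2-fold. They were chosen after the values were seen, are read 5′ to 3′ on the gene's strand from the RefSeq TAIR10.1 assembly, and overlap no other annotated gene. Capitals mark the hexamer CACGTG, which is known as the G-box and is bound by many bHLH factors, and its relative CACGTC as well as the further relative CACGAG, each searched on both strands. The windows are chr1:28828993-28829242 on the plus strand for VTL2, chr5:230052-230301 on the minus strand for FER1 and chr3:21085246-21085495 on the minus strand for BHLH38.
VTL2: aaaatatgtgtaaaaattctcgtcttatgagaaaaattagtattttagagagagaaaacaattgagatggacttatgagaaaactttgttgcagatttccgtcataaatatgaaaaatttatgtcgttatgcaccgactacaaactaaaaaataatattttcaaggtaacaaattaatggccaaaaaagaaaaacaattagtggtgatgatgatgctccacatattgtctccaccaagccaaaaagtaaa
FER1: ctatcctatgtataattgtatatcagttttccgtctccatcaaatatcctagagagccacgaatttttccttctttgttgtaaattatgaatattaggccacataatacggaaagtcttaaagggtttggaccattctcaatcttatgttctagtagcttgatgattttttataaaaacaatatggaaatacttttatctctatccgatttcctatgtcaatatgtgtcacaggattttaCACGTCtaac
BHLH38: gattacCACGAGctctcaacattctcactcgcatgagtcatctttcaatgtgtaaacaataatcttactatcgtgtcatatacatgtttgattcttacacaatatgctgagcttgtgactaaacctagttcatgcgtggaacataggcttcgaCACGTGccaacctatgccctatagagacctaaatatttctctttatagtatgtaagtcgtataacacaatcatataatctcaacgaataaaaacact

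The FER1 window holds CACGTC with its first base at position -10 from the annotated start, and the BHLH38 window holds CACGAG at -244 and CACGTG at -97. None of these hexamers is in the VTL2 window. CACGTG was present on either strand in 66 of 562 windows of genes at least 2-fold lower in PPL (11.7%), in 42 of 707 of those higher (5.94%) and in 1244 of 17634 of those between (7.05%), beside 5.83% of all 32834 windows. CACGTC stood in 9.25% of the lower, 9.34% of the higher and 6.09% of the genes between, beside 5.55% of all windows, and CACGAG in 5.87%, 5.8%, 3.99% and 4.16%. CACGTG stood in the windows of 2 of 9 storage genes, 1 of 19 uptake genes and 5 of 20 regulators. A match is a string of letters and not a binding site, and none of these shares was tested.

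Genes for iron movement inside the plant split in PPL against pye-1. Of 15 compared, 2 were at least 2-fold lower, 1 was higher and 12 were neither, with a median log2 difference of -0.07. Over all genes compared, 2.99% were lower and 3.76% higher. NAS3 (AT1G09240, chromosome 1, 2984829 to 2986231) encodes a nicotianamine synthase, which makes a metal chelator for transport in the phloem. Wild type was listed at 0 with and without iron, and PPL stood at 0.117 RPKM, but the level was 24.8 in pye-1 and 22.7 to 29.9 in the other 4 lines, so that PPL and wild type stood apart from the rest. FRD3 (AT3G08040), a citrate exporter that loads iron into the xylem, stood at 234 RPKM in pye-1 and 96.6 in PPL, a 2.42-fold lower level, with 107 in iron-deficient wild type. NAS1 (AT5G04950) was the member with a higher level, at 134 RPKM in PPL and 36.3 in pye-1 and 207 in iron-deficient wild type, and no other iron-deficient line exceeded 85.4. YSL2, YSL3, NRAMP3 and NRAMP4, transporters of metal-nicotianamine complexes and of vacuolar iron, were 1.5-fold to 2-fold lower in PPL by value.

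Genes reported in earlier work as PYE targets did not behave alike. Of these 8, which also belong to the storage or transport lists, 4 were at least 2-fold lower in PPL and 4 were neither. Over all genes compared, 2.99% were lower. The lower ones were VTL2, NEET, FER1 and FER4, described above, of which NEET and FER4 were kept through their pye-1 level alone. NAS4 (AT1G56430) stood at 143 RPKM in PPL and 142 in pye-1, ZIF1 (AT5G13740), a vacuolar nicotianamine transporter, at 184 RPKM in PPL and 194 in pye-1, and FRO3 (AT1G23020), a mitochondrial ferric reductase, at 346 RPKM in PPL and 395 in pye-1. Those 3 levels differed between the columns by at most 1.14-fold and lay near the values of 119, 191 and 367 of iron-deficient wild type. SHR23 held the highest level of each, 262 RPKM for NAS4, 428 for ZIF1 and 738 for FRO3.

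Iron uptake genes were higher in PPL than in pye-1. All 19 had a higher value, 15 of them by at least 2-fold against 3.76% of all genes compared, and their median log2 difference was 1.75. The authors' deposited table lists 18 of the 19 as falling in pye-1 against wild type and, in the table taken for PPL, none as changed. Those tables hold 3878 genes (11.5% of 33602) for pye-1 and 3 genes (0.00893%) for PPL. IRT1 (AT4G19690), the main ferrous iron importer, stood at 237 RPKM in wild type on iron, 3853 without it, 1194 in pye-1, 3186 in PPL and 2141 to 3430.4 in the other 4 lines. Its level in PPL was 2.67 times that of pye-1, but SHR23 and WER13 lay above PPL. FRO2 (AT1G01580), the surface ferric reductase, stood at 1739.8 RPKM in PPL and 392 in pye-1, 4.44 times the mutant's level, and PPL there exceeded the other 4 lines, which reached 1238.

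Genes of coumarin production and transport were higher in PPL by unequal amounts. AT3G12900, a 2-oxoglutarate and iron-dependent oxygenase gene (chromosome 3, 4104463 to 4106341), stood at 0.999 RPKM with iron, 1492 in iron-deficient wild type, 107 in pye-1 and 1062 in PPL, with 256 to 730.2 in the other 4 lines. CYP82C4 (AT4G31940), which hydroxylates the coumarin fraxetin, stood at 839 RPKM in PPL and 89.4 in pye-1, 9.39 times the mutant's level, while the highest of the other 4 lines was 313. BGLU42 (AT5G36890), a beta-glucosidase of coumarin secretion, stood at 121 RPKM in PPL and 20.5 in pye-1. F6'H1 (AT3G13610), which catalyses the committed step of coumarin synthesis, stood at 788 RPKM in PPL and 277 in pye-1, and the exporter gene ABCG37 (AT3G53480) at 438 RPKM in PPL and 177 in pye-1. For these 5 genes PPL was the highest of all groups except iron-deficient wild type. AT1G28680, an acyltransferase gene of coumarin synthesis, missed 2-fold at 15.3 RPKM in PPL and 10.3 in pye-1.

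Further uptake genes had higher values in PPL than in pye-1 as well. The proton pump gene AHA7 (AT3G60330) stood at 40.2 RPKM in PPL and 8.14 in pye-1, and AHA2 (AT4G30190), the main root proton pump, at 1272 RPKM in PPL and 1011 in pye-1, the smallest difference of the list. ZIP8 (AT5G45105), of the ZIP family of metal transporters, stood at 67.3 RPKM in PPL and 6.89 in pye-1, and IREG2 (AT5G03570), which moves metals into the vacuole, at 199.7 RPKM in PPL and 52 in pye-1. FIT (AT2G28160) itself stood at 212 RPKM in PPL and 62.5 in pye-1, 3.39 times the mutant's level, with 76 to 109 in the other 4 lines. MYB10 (AT3G12820) and MYB72 (AT1G56160), transcription factor genes that act with FIT, stood at 171 and 28 RPKM in PPL and 86.7 and 11.2 in pye-1, and MYB10 lay above PPL in SHR23, WER13 and WER65, at 286, 256 and 174 RPKM. PPL lay under iron-deficient wild type by value at every one of the 19 genes, with a median log2 difference of -0.27.

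Regulators of the iron response other than FIT, MYB10 and MYB72, which were counted with the uptake genes above, mostly did not differ 2-fold. Of 20 compared, 18 lay between, 1 was higher and 1 lower, with a median log2 difference of 0.25. That is 5% each way, near the 3.76% higher and 2.99% lower of all genes compared. The share covers these 20 genes only, since FIT and MYB72 were more than 2-fold higher in PPL. The subgroup Ib genes BHLH38, BHLH39, BHLH100 and BHLH101 stood at 729.7, 746, 658 and 164 RPKM in PPL and 639, 642, 618 and 164 in pye-1. Those 4 values differed by at most 1.16-fold, and both groups stood far above iron-sufficient wild type, where the highest of the 4 was 55.2. BHLH11 (AT4G36060), known as a repressor of the iron response, was the lower one, at 6.65 RPKM in pye-1 and 1 in PPL and 0.587 in iron-deficient wild type, and the authors' deposited table lists it as rising in pye-1 (q = 0.000163). AT1G18910, annotated as a zinc ion binding protein gene, was the higher one, at 60.3 RPKM in PPL and 25.6 in pye-1, while its relative AT1G74770 missed 2-fold at 235 against 147 RPKM. The ubiquitin ligase gene BTS (AT3G18290) stood at 169.5 RPKM in PPL and 195 in pye-1, 138 in iron-deficient wild type and 217 to 289.9 in the other 4 lines.

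**Figure D2:**
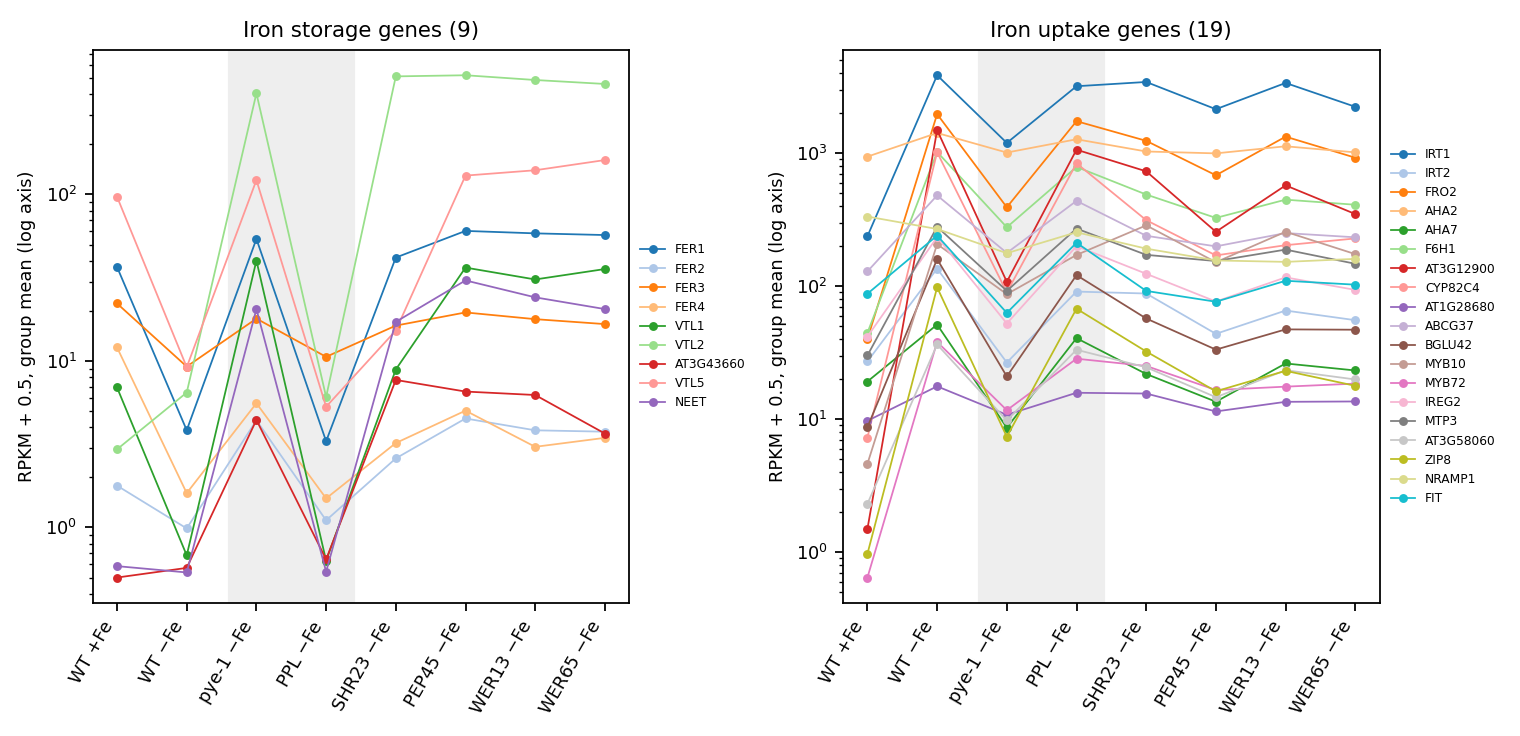
Group values of the 9 storage genes (left) and 19 uptake genes (right) as RPKM + 0.5 on a log axis in the 8 groups, each line joining 1 gene and the grey band marking pye-1 and PPL. PPL lies next to iron-deficient wild type in both panels, with FER1 at 2.79 RPKM against 53.5 in pye-1 and FRO2 at 1739.8 against 392.

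Some genes for enzymes that contain iron, and for the pathways that supply their cofactors, were lower in PPL than in pye-1. Of 12 redox genes compared, 6 were at least 2-fold lower, against 2.99% of all genes compared. The other 6 were neither, 3 of them with a higher value in PPL. ENH1 (AT5G17170), a rubredoxin-family gene, stood at 43.3 RPKM in pye-1 and 0.512 in PPL, against 0.445 in iron-deficient wild type, 1.46 with iron and 48.1 to 60.8 in the other 4 lines. FSD1 (AT4G25100), the iron superoxide dismutase, stood at 135 RPKM in pye-1 and 17.3 in PPL, a 7.83-fold lower level, and APX1 (AT1G07890), an ascorbate peroxidase, at 434 RPKM in pye-1 and 150.0 in PPL. The catalase genes CAT1, CAT2 and CAT3 stood at 8.27, 37.9 and 129 RPKM in PPL and 34.8, 86.8 and 308 in pye-1. The superoxide dismutases that use copper or manganese did not share this. CSD1 (AT1G08830) stood at 246 RPKM in PPL and 260.0 in pye-1, CSD2 (AT2G28190) at 71.8 RPKM in PPL and 61.8 in pye-1, and MSD1 (AT3G10920) at 166 RPKM in PPL and 136 in pye-1.

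Of 16 genes for heme, iron-sulfur clusters and mitochondrial iron enzymes, 4 were at least 2-fold lower in PPL, against 2.99% of all genes compared. The other 12 were neither, 4 of them with a higher value in PPL. ABCI8 (AT4G04770), part of the plastid machinery that assembles iron-sulfur clusters, stood at 42.8 RPKM with iron, 5.07 in iron-deficient wild type, 40.1 in pye-1 and 3.73 in PPL. HEMA1 (AT1G58290), which encodes glutamyl-tRNA reductase at the entry to tetrapyrrole synthesis, stood at 35.7 RPKM in pye-1 and 4.02 in PPL. For both genes pye-1 lay close to iron-sufficient wild type and PPL just under iron-deficient wild type. The mitochondrial aconitase gene ACO3 (AT2G05710) stood at 226 RPKM in pye-1 and 73.3 in PPL, whereas ACO1 (AT4G35830), another aconitase, stood at 214 RPKM in pye-1 and 221 in PPL. AOX1D (AT1G32350), an alternative oxidase gene, stood at 4.58 RPKM in pye-1 and 0.919 in PPL, and AOX1A (AT3G22370) missed 2-fold at 198 against 108 RPKM.

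Root hair genes were higher in PPL than in pye-1. Of 19 compared, 15 were at least 2-fold higher and none lower, beside 3.76% and 2.99% of all genes compared, with a median log2 difference of 1.68. RHS19 (AT5G67400), a root-hair-specific gene, stood at 62.5 RPKM with iron, 25.2 in iron-deficient wild type, 2.07 in pye-1 and 18 in PPL. LRX1 (AT1G12040), which encodes a leucine-rich repeat extensin of the hair wall, stood at 9.92 RPKM in PPL and 1.15 in pye-1, and EXPA7 (AT1G12560), an expansin gene, at 20.5 RPKM in PPL and 2.88 in pye-1. RSL4 (AT1G27740), the bHLH factor that sets hair growth, stood at 10.7 RPKM in PPL and 1.49 in pye-1 and 13.3 in iron-deficient wild type. In WER65, but not in SHR23, PEP45 or WER13, the levels were near those of PPL, with EXPA7 at 14.1 RPKM and RSL4 at 9.84 against at most 3.93 and 3.46 in those 3 lines.

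RSL2, RHD6 and RBOHC, which act in hair fate and tip growth, stood at 1.47, 4.77 and 15 RPKM in PPL and 0.333, 2.44 and 7.98 in pye-1, and of these RSL2 alone passed 2-fold. CSLD3 (AT3G03050), a cellulose-synthase-like gene needed for hair walls, stood at 21.7 RPKM in PPL and 21.9 in pye-1, and it was the one gene of the list without a higher value in PPL. GL2 (AT1G79840), which represses hair fate in non-hair cells, stood at 3.14 RPKM in PPL and 1.93 in pye-1, and WER (AT5G14750) at 7.86 RPKM in PPL and 5.9 in pye-1, neither 2-fold apart. In whole roots, fewer cells of a type and less RNA per cell cannot be told apart.

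Genes of the root's barrier tissues differed in opposite directions. Of 8 Casparian strip genes compared, 4 were at least 2-fold higher in PPL and none lower, beside 3.76% and 2.99% of all genes compared. CASP1 (AT2G36100), a scaffold protein of the strip in the endodermis, stood at 246 RPKM with iron, 84.8 in iron-deficient wild type, 26.7 in pye-1 and 72.6 in PPL. CASP2 and the peroxidase gene PER64 stood at 25.3 and 54.7 RPKM in PPL and 11.1 and 21.6 in pye-1. MYB36 (AT5G57620), the factor that switches these genes on, missed 2-fold at 23.9 against 16.2 RPKM. All 14 suberin genes had a lower value in PPL, 4 of them by at least 2-fold, against 2.99% of all genes compared. Those were the fatty acid hydroxylase gene CYP86B1 at 54.2 RPKM in pye-1 and 24.5 in PPL, ASFT, which adds ferulate, at 158 RPKM in pye-1 and 73 in PPL, and the acyltransferase genes GPAT5 and GPAT7 at 21.7 and 6.87 RPKM in PPL against 46.6 and 14.7.

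The vascular lists did not behave alike. Of 6 phloem genes, 2 were at least 2-fold higher in PPL, against 3.76% of all genes compared. They were the sucrose exporters SWEET11 (12.6 RPKM in PPL and 4.26 in pye-1) and SWEET12 (58 RPKM in PPL and 27.5 in pye-1). SUC2, which loads sucrose into the phloem, stood at 54.1 RPKM in PPL and 33.1 in pye-1, and the phloem identity gene APL at 12 RPKM in PPL and 11.2 in pye-1. None of 11 xylem genes differed 2-fold, a count near the 6.75% of all genes compared that did, and their median log2 difference was -0.14. SHR and SCR, the ground tissue regulators, did not differ 2-fold either, at 14.7 and 12.7 RPKM in PPL and 14.2 and 12 in pye-1. Transcripts of photosynthesis, taken here as a marker of green tissue since the roots were cut by razor, had a median over 13 genes of 5.60 RPKM in PPL and 4.99 in pye-1, but 14.2 in iron-deficient and 25.8 in iron-sufficient wild type. In the other lines that median was 2.23 in SHR23, 13.8 in PEP45, 1.08 in WER13 and 0.66 in WER65. The single member that differed 2-fold was RBCS3B, at 2.08 RPKM in pye-1 and 0.55 in PPL, whose reads may be split among near-identical copies. PPL and pye-1 were thus close in these markers and both lay under wild type, and their part in the other results was not tested.

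**Figure D3:**
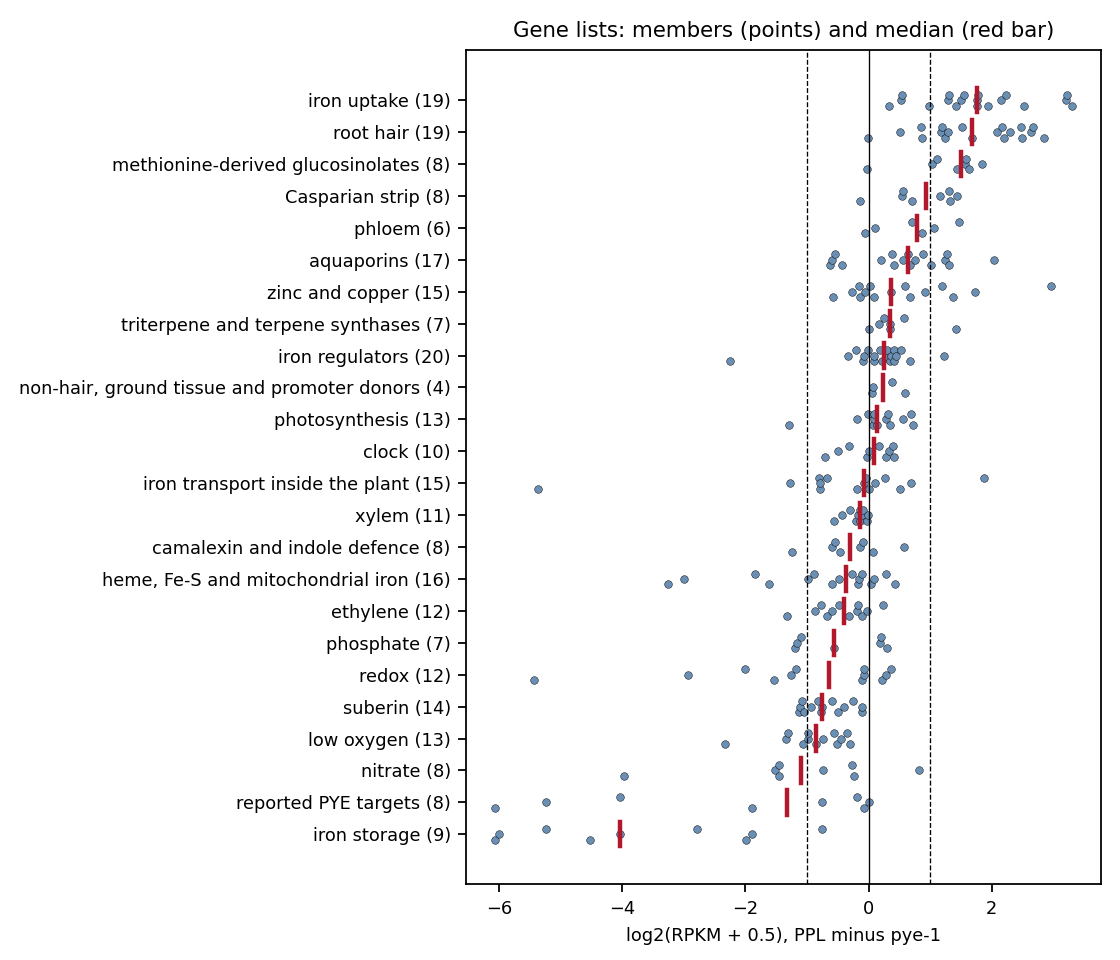
Difference between PPL and pye-1 on the log2(RPKM + 0.5) scale for the compared members of 24 gene lists (points) with each median (red bar), dashed lines at 2-fold, and the number of members in brackets. Iron storage has the lowest median, -4.04, and iron uptake the highest, 1.75. The xylem and clock lists have no member past 2-fold, beside 6.75% of all genes compared.

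Low-oxygen genes were lower in PPL than in pye-1, with modest differences. All 13 had a lower value, 4 by at least 2-fold against 2.99% of all genes compared, and their median log2 difference was -0.85. SUS1 (AT5G20830), a sucrose synthase, stood at 12.5 RPKM with iron, 20 in iron-deficient wild type, 114 in pye-1 and 22.3 in PPL. The transcription factor gene LBD41 stood at 279 RPKM in pye-1 and 109.7 in PPL, PDC1, pyruvate decarboxylase, at 355 RPKM in pye-1 and 143 in PPL, and HRE1, an ethylene response factor gene of hypoxia, at 83.1 RPKM in pye-1 and 39.4 in PPL. ADH1, alcohol dehydrogenase, stood at 693 RPKM in pye-1 and 415 in PPL, with 299 in iron-deficient wild type and 2.48 with iron. For ADH1 and PDC1, PPL thus lay between wild type and pye-1. Ethylene genes leaned the same way, 11 of 12 with a lower value. Only 1 was lower by 2-fold, the ACC synthase gene ACS8 at 1.16 RPKM in pye-1 and 0.158 in PPL. That share, 8.33% beside 2.99% of all genes compared, rests on 1 gene.

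Some nitrate and phosphate genes were lower in PPL than in pye-1. Of 8 nitrate genes 4 were at least 2-fold lower in PPL, against 2.99% of all genes compared. NRT2:1 (AT1G08090), a high-affinity nitrate transporter, stood at 1.27 RPKM with iron, 0.724 in iron-deficient wild type, 50.4 in pye-1, 2.76 in PPL and 4.43 to 26.2 in the other 4 lines, so pye-1 was the highest of all groups. The nitrite reductase gene NIR1 stood at 131 RPKM in pye-1 and 45.7 in PPL, the nitrate reductase gene NIA1 at 68.5 RPKM in pye-1 and 24.8 in PPL, and the nitrate transporter and sensor gene NRT1.1 at 128 RPKM in pye-1 and 46.7 in PPL. NRT1.5, which loads nitrate into the xylem, lay the other way, at 419.7 RPKM in PPL and 238 in pye-1, and missed 2-fold. Of 7 phosphate genes 3 were at least 2-fold lower, against 2.99% of all genes compared. PAP17 (a purple acid phosphatase) stood at 17.9 RPKM in pye-1 and 7.55 in PPL. SPX1 (a phosphate sensor protein) stood at 9.74 RPKM in pye-1 and 4.07 in PPL, and PS2 at 2.92 RPKM in pye-1 and 1.11 in PPL.

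Zinc and copper genes held 4 of 15 that were at least 2-fold higher in PPL and none lower. Over all genes compared the shares were 3.76% and 2.99%. ZIP9 (AT4G33020), a ZIP-family transporter, stood at 2.6 RPKM with iron, 31.3 in iron-deficient wild type, 2.88 in pye-1, 25.6 in PPL and 5.73 to 7.48 in the other 4 lines. HMA3 (AT4G30120), which pumps zinc and cadmium into the vacuole, stood at 30.8 RPKM in PPL and 11.6 in pye-1, the copper importer gene COPT2 at 213 RPKM in PPL and 93.2 in pye-1, and ZIP3 at 3.56 RPKM in PPL and 0.732 in pye-1. At ZIP3 iron-sufficient wild type was far above every iron-deficient group, at 48.9 RPKM. HMA2, HMA4 and MTP1, which export zinc or store it, did not differ 2-fold, at 8.68, 94.1 and 79.3 RPKM in PPL and 6.67, 88.1 and 77.7 in pye-1.

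Aquaporin genes, which encode water channels of the plasma membrane and the vacuole, were higher in PPL in 5 of 17 cases at 2-fold and lower in none. Over all genes compared, 3.76% were higher and 2.99% lower. TIP1;2 (AT3G26520) stood at 2402 RPKM with iron, 723 in iron-deficient wild type, 113 in pye-1 and 466 in PPL. PIP2;4, PIP1;1, TIP4;1 and PIP2;7 stood at 34.9, 254, 20.2 and 139.7 RPKM in PPL and 13.7, 105, 8.27 and 69.1 in pye-1. TIP2;1 and TIP2;3 had lower values in PPL than in pye-1, 4.6 and 21.2 RPKM against 7.36 and 28.8, although iron-deficient wild type stood at 27 and 113. The direction was therefore not uniform across the family.

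Genes for methionine-derived glucosinolates were higher in PPL, 7 of 8 by at least 2-fold against 3.76% of all genes compared. Their median log2 difference was 1.5. BCAT4 (AT3G19710), the transaminase that starts the chain elongation of methionine, stood at 1.97 RPKM with iron, 24.8 in iron-deficient wild type, 9.62 in pye-1, 35.6 in PPL and 86.6 in SHR23, and at 9.19 or less in the other 3 lines. CYP83A1 and CYP79F2, cytochrome P450 enzymes of the core pathway, stood at 33.7 and 26.4 RPKM in PPL and 10.6 and 8.58 in pye-1. MYB28, the factor that activates the pathway, stood at 20.7 RPKM in PPL and 6.61 in pye-1 and 15.2 in iron-deficient wild type. PPL thus exceeded wild type by value here, the median of the list being 30.7 RPKM in PPL, 20.5 in iron-deficient wild type, 9.94 in pye-1 and 50.4 in SHR23. SUR1, a lyase shared with the indole branch, did not differ, at 32.8 RPKM in PPL and 33.5 in pye-1.

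Other defence metabolites differed little. Of 8 camalexin and indole genes 1 was lower by 2-fold, beside 2.99% of all genes compared, so the share rests on a single gene. That gene was CYP82C2, a cytochrome P450 gene, at 6.13 RPKM in pye-1 and 2.31 in PPL. PAD3, the last enzyme of camalexin synthesis, stood at 38.6 RPKM in pye-1 and 25.5 in PPL. Of 7 triterpene and terpene synthase genes 1 was higher, beside 3.76% of all genes compared, again a single gene. It was TPS13, at 11.9 RPKM in PPL and 4.13 in pye-1. The thalianol synthase gene THAS1 stood at 16.1 RPKM in PPL and 12.6 in pye-1 and 30.3 in iron-deficient wild type. None of 10 clock genes differed 2-fold, a count near the 6.75% of all genes compared that did. CCA1 and LHY were under 1 RPKM in both columns and were not compared. RVE8 stood at 2 RPKM in PPL and 3.03 in pye-1, and PRR7 at 21.5 and 17.6. In SHR23, WER13 and WER65 RVE8 stood at 9.68, 9.87 and 8.99 RPKM.

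Outside these lists, the largest differences among genes of at least 5 RPKM in the higher column fell at the following genes. CYP71B5 (AT3G53280), a cytochrome P450 gene, was the highest in PPL relative to pye-1, at 33.8 RPKM in PPL and 1.42 in pye-1, with 54.8 in iron-deficient wild type and 0.0882 with iron. AT4G17680, an S-ribonuclease binding protein family gene, stood at 89.8 RPKM in PPL and 7.13 in pye-1, and AT5G09570, a Cox19-like gene, at 55.3 RPKM in PPL and 5.6 in pye-1. AT3G09925 and AT2G47540, of the pollen Ole e 1 allergen and extensin family, stood at 66.3 and 45.2 RPKM in PPL and 7.63 and 5.36 in pye-1, and the extensin gene EXT10 at 24.3 RPKM in PPL and 2.77 in pye-1. On the lower side were AT3G13840, a GRAS-family transcription factor gene, at 11.5 RPKM in pye-1 and 0.0519 in PPL, and NYC1, which encodes a chlorophyll b reductase, at 42.8 RPKM in pye-1 and 1.8 in PPL. The authors' deposited table lists the first 6 of these genes as falling and the last 2 as rising in pye-1 against wild type.

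The levels of the called genes in the groups that did not enter the comparison are given side by side, since the comparisons share libraries. The 715 genes higher in PPL had a median of 10.4 RPKM in PPL and 3.07 in pye-1, by the choice of genes, and 11.0 in iron-deficient and 8.15 in iron-sufficient wild type. Their medians were 4.88 in SHR23, 4.10 in PEP45, 3.94 in WER13 and 4.57 in WER65. The 567 genes lower in PPL had a median of 3.92 RPKM in PPL and 13.2 in pye-1, and 3.92 in iron-deficient and 2.63 in iron-sufficient wild type. Their medians were 9.77 in SHR23, 11.5 in PEP45, 11.2 in WER13 and 11.6 in WER65.

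The authors' lists of genes changed in pye-1 were made without PPL. They were then cut here to genes with at least 1 RPKM in PPL or pye-1. A listed gene under 1 RPKM in pye-1 was thus kept only through its level in PPL, which can raise the PPL median of the falling set. The size of this effect was not tested. Of 1818 genes that the authors' deposited table lists as rising in pye-1, 1738 were compared here, and their median was 5.96 RPKM in iron-deficient wild type, 12.7 in pye-1 and 6.51 in PPL. Of 2060 that the authors' deposited table lists as falling, 1910 were compared, and their median was 13.4 RPKM in iron-deficient wild type, 5.80 in pye-1 and 11.9 in PPL. In both sets the median of PPL lay between those of wild type and pye-1 and nearer to wild type, and the medians of the other 4 lines were 9.91 to 11.6 RPKM for the rising and 6.0 to 7.25 for the falling genes.

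By the same 2-fold rule, iron-deficient wild type differed from pye-1 at 8.91% of 19090 genes, SHR23 at 4.09% of 18788, PEP45 at 1.32% of 18821, WER13 at 2.77% of 18729 and WER65 at 2.12% of 18760. PPL, at 6.75%, thus came after wild type and before the other lines in this share, and it differed from iron-deficient wild type itself at 0.636% of 18870 genes, 10 higher (0.053%) and 110 lower (0.583%). Whether these shares differ beyond the spread between libraries was not tested.

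**Figure D4:**
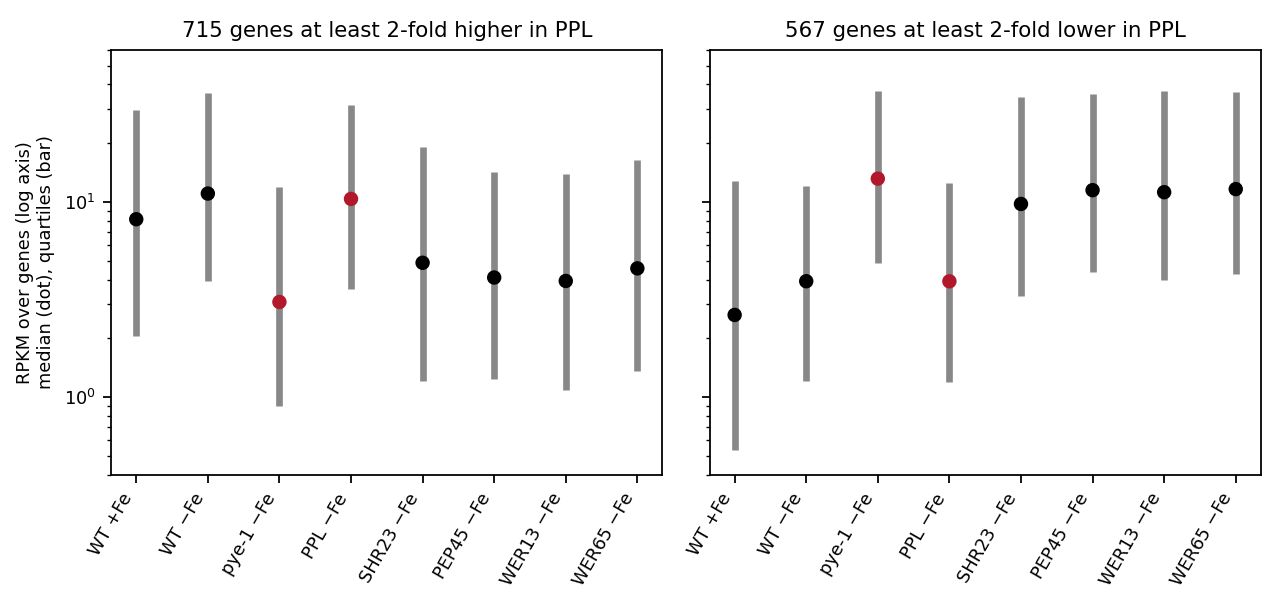
Median (dot) and quartiles (bar) of the RPKM of the 715 genes higher (left) and 567 genes lower (right) in PPL than in pye-1, on a log axis, in each of the 8 groups, with pye-1 and PPL in red. The medians of iron-deficient wild type, 11.0 and 3.92 RPKM, lie beside those of PPL, 10.4 and 3.92.

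At some genes PPL did not lie near wild type. By a rule set after the values were seen (listed by the authors and at least 4-fold from iron-deficient wild type in pye-1, within 1.5-fold of pye-1 in PPL, and at 5 RPKM or more in 1 of the 3), 3 genes remained at the level of pye-1. CNGC12 (AT2G46450), which encodes an ion channel gated by cyclic nucleotides, stood at 0.794 RPKM in iron-deficient wild type, 1.31 with iron, 5.31 in pye-1, 4.39 in PPL and 5.17 to 5.82 in the other 4 lines. The authors' deposited table lists it as rising in pye-1 (q = 2.02e-06), and the table taken for PPL also lists it as rising (q = 0.00296). The other two were AT4G12510 and AT5G46900, both of a lipid-transfer protein family, at 4.04 and 7.49 RPKM in PPL, 3.37 and 8.37 in pye-1 and 15.6 and 42.2 in iron-deficient wild type.

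MRD1 (AT1G53480), a gene named for its response in a methionine-overaccumulating mutant, was low in PPL and not in pye-1 or wild type. It stood at 1.96 RPKM in iron-deficient wild type, 1.93 in pye-1 and 0.0457 in PPL, and at 2.77 in SHR23, 0.052 in PEP45, 0.0358 in WER13 and 0 in WER65. Wild type, pye-1 and SHR23 thus formed one level and the other 4 iron-deficient groups another, near 0.

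Among 48 genes that differed at least 2-fold between PPL and iron-deficient wild type at 5 RPKM or more, 18 have a RefSeq product named for a photosystem or for chlorophyll. The share of such products among all genes compared was not counted. Of these 18, 17 differed less than 2-fold between PPL and pye-1, and PSAK, a photosystem I subunit gene, stood at 6.69 RPKM in pye-1 and 2.9 in PPL. Over all genes compared, 6.75% differed 2-fold or more, so that count is near the general share. LHCB1.3 stood at 108 RPKM in iron-deficient wild type, 18.7 in pye-1 and 23.3 in PPL. MRN1, marneral synthase, stood at 5.4, 1.61 and 1.61 in the same order, and XTH17, a xyloglucan-modifying enzyme gene, at 5.37, 1.67 and 0.829. AT1G26240, an extensin-like gene, stood at 3.62, 19.9 and 8.9, so that PPL lay midway. None of these genes is listed in the authors' deposited table taken for PPL.

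**Figure D5:**
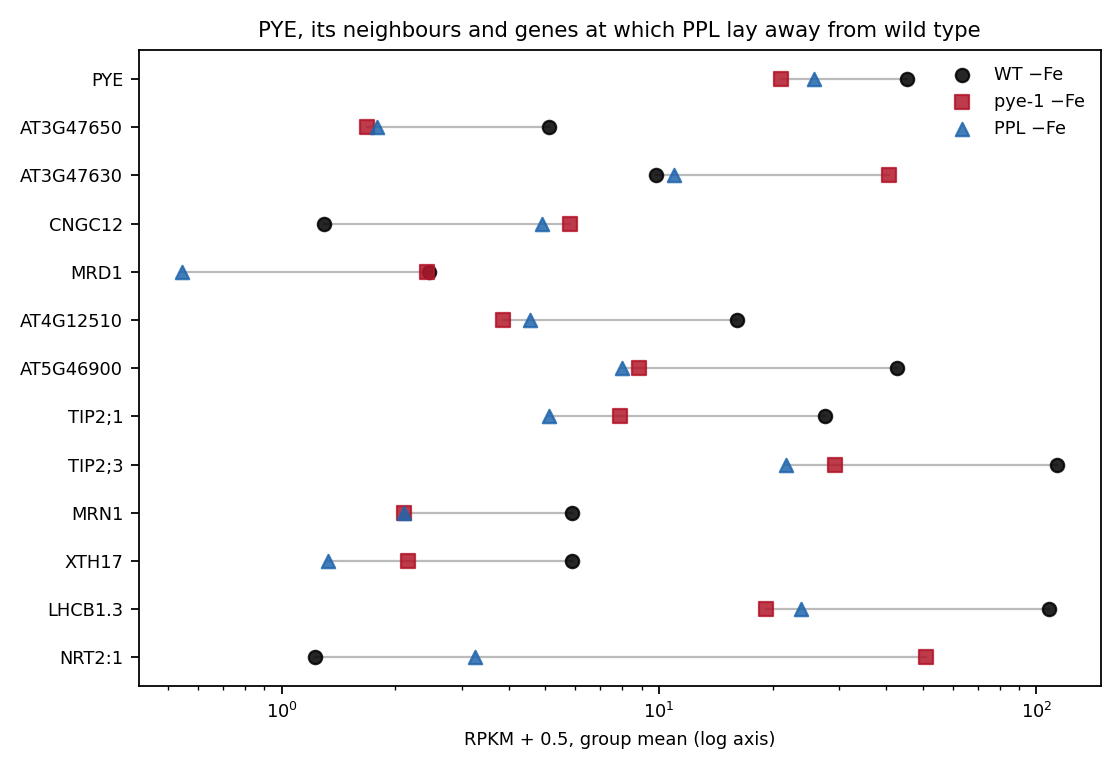
Group values, as RPKM + 0.5 on a log axis, of PYE, its flanking genes and genes at which PPL lay away from wild type, with circles for iron-deficient wild type, squares for pye-1 and triangles for PPL. CNGC12 stands at 0.794 RPKM in wild type, 5.31 in pye-1 and 4.39 in PPL, and MRD1 at 1.96, 1.93 and 0.0457.

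The threshold of 1 RPKM left out genes of very low level. Just outside it lay AHA10 at 0.994 RPKM in pye-1 and 0.949 in PPL and AT1G72645 at 0.442 and 0.999. Just inside lay AT1G14600 at 0.884 and 1 and AT5G20220 at 1 and 0.576. A gene kept through 1 column alone had to lie lower in the other, so counts of called genes at low levels are a description. This holds for the members of the gene lists and product families as well. Of the genes whose higher column held 1 to 2 RPKM, 6.15% were called higher and 3.01% lower in PPL, and from 20 to 100 RPKM 2.86% and 2.68%. From 100 RPKM upward the shares were 5.27% and 4.27%, so they did not simply fall with level.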

How the data were processed

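RNA of separated roots was sequenced by the submitters from poly(A)-selected directional libraries, 3 per group, per the labels' protocols. The submitters' processing notes name TAIR10, FastQC, TopHat2 and edgeR with neither versions nor roles, and which program counted reads, on which strand and over which gene lengths is not stated there. The authors deposited RPKM values of 33602 genes, with a single value per group. Part of the low values fell on steps of whole reads, from which effective libraries were estimated. These were 15624100 to 18627000 reads in PPL and 20070800 to 24011400 in pye-1. Each step held 85 to 107 of 374 low values in PPL and 65 to 135 of 579 in pye-1. The q-values come from the authors' deposited tables, whose test is not stated; all lie under 0.05. The table headed PYE, with 3 genes, was taken for PPL by elimination and by its values, chiefly that of MRD1, which the labels do not state; no column of values was left unassigned.

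Differences were taken on log2(RPKM + 0.5), which understates the change of low genes, and called at 2-fold (log2 of 1); folds given for single genes are plain ratios of the deposited RPKM. The calling code was run on pye-1 values with a 3-fold change planted in some genes and the others left equal. That run held no noise, so it checks the code and says nothing about the counts of called genes. Calculations used Python 3.11.15, pandas 2.3.3 and numpy 2.4.6, and figures matplotlib 3.10.9. Identifiers were matched to RefSeq TAIR10.1 for names, coordinates and upstream windows of 250 bases, and 32835 (97.7%) matched; no protein or miRNA table was used. The 25 gene lists (301 genes, 273 of them compared) and the comparison itself were chosen with earlier results of these data known. Named genes were PYE, up to 4 members of each list with the largest difference, the 10 genes at each end among those of at least 5 RPKM, and genes next to the threshold of 1 RPKM; other genes named, the product families, the PYE neighbours and the genes at which PPL lay away from wild type were chosen after their values were seen. With 1 value per group the planned test with limma could not be fitted. The libraries are not stated to come from separate cultures.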

Additional observations from a re-analysis of the deposited data

How the results depend on the processing

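The 715 higher and 567 lower genes became 897 and 678 with a pseudocount of 0.1, 560 and 475 with 1, 754 and 600 with no filter, and 723 and 561 after centring the median. With at least 5 RPKM in either column 473 were higher, at 1.5-fold 1861 and 1451, and at 3-fold 228 and 198. Across all settings 53.1% to 57% of the called genes were higher in PPL. Of 125 list medians recomputed, 111 stayed within 0.25 on the log2 scale and 14 moved, among them iron storage (-4.52 at 5 RPKM, -3.41 with no filter) and root hair (1.28 to 2.29). With no filter the phosphate median changed sign, from -0.56 to 0.15, as did the clock median, from 0.086 to -0.012, and no list whose median passed 2-fold did. Such lists numbered 7, and 5 to 7 under the alternatives. No paired analysis was possible because each group has 1 deposited column, and for the same reason no library could be left out. Depth limits values under 1 RPKM.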

Other observations

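Gene families named by their RefSeq products, and chosen after their values were seen, are given by their shares of called genes, with no test and beside 3.76% higher and 2.99% lower over all genes compared. Of 177 product names with at least 10 compared genes, the proline-rich extensin-like family held the largest share of higher genes, 8 of 11 (72.7%), with 1 lower. Its members EXT6 (AT2G24980), EXT12 (AT4G13390) and AT3G54580 stood at 14.6, 11.1 and 97.7 RPKM in PPL and 1.68, 2.24 and 18.4 in pye-1, while AT1G26250 stood at 418 and 402. Of 11 genes of the CAP superfamily, secreted cysteine-rich proteins, 6 were higher (54.5%) and none lower, AT4G07820 standing at 193 RPKM in PPL, 33.4 in pye-1, 212 in iron-deficient wild type and 14.4 to 29.1 in the other 4 lines. The higher CAP genes AT4G25790, AT4G30320, AT4G33730 and AT4G33720 lay under 1 RPKM in pye-1 and were kept through PPL alone.

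Of 17 dirigent-like genes, whose products guide the coupling of lignin-type precursors, 8 were higher in PPL (47.1%) and 2 lower. AT3G55230 stood at 64.1 RPKM in PPL and 23.6 in pye-1, and AT1G55210 lay the other way, at 24.2 and 108. Next by share were putative transmembrane proteins of the DUF247 family, 5 of 12 (41.7%) with none lower, and hypothetical proteins of the DUF295 family, 4 of 10 (40%) with 2 lower. The higher DUF247 genes AT3G50140, AT3G50150, AT3G44710 and AT3G60470 lay under 1 RPKM in pye-1 and were kept through PPL alone. Members kept through 1 column alone also stand in the extensin-like, dirigent-like, cupredoxin and HSP20-like counts. The largest shares of lower genes were those of the cupredoxins, 4 of 13 (30.8%), and the HSP20-like chaperones, 7 of 26 (26.9%), with none higher in either. Other families with more lower than higher genes included the UDP-glycosyltransferases, 9 lower and 3 higher of 61, and the integrase-type DNA-binding proteins, 7 lower and 1 higher of 41. Calls were spread over the 5 chromosomes, between 3.48% (chromosome 1) and 4.22% (chromosome 4) of genes higher and between 2.64% (chromosome 3) and 3.55% (chromosome 5) lower.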
